A study of Mus musculus with 2 samples.

Results

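Enc1 encodes ectodermal-neural cortex 1, an actin-binding protein of neurons, and its RNA was examined here for contact with the RNA-binding protein Rbfox1 in the cytoplasm. The gene was taken as reads lying wholly inside an interval of chromosome 13 in the mm9 build, 98009000 to 98024500 (15501 nt), and on its plus strand. This gave 296 of 64820 deposited reads in the anti-Rbfox1 library and 0 of 569 in the anti-Flag library. The gene was chosen by its number of read clusters in the anti-Rbfox1 library, so its reads and clusters are given as a description with no test. Both libraries were iCLIP preparations from mouse forebrain neurons cultured for 14 days in vitro (DIV), irradiated on ice with ultraviolet light of 254 nm at 500 mJ/cm2 and opened for 1 min with 0.1% Triton X-100 to release the cytoplasmic fraction. The series asks where Rbfox1 sits on RNA in that fraction. One library was precipitated with antibodies against Rbfox1, and the control with antibodies against the Flag epitope, so no value has a replicate. No mm9 annotation was used here, so the name Enc1 rests on the interval alone, and the cells and fraction were not checked against marker genes.

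The Enc1 protein carries a BTB domain and kelch repeats. Its kelch repeats are known to bind actin, and proteins of this family can also act as adaptors that bring substrates to Cul3 ubiquitin ligases. Enc1 is known for its strong expression in the nervous system and its part in the formation of neuronal processes. Rbfox1 is best known as a splicing regulator of neurons and reads the RNA word UGCAUG, or its shorter core GCAUG. Some of its isoforms stay in the cytoplasm, where they are known to bind 3′ untranslated regions of neuronal mRNAs. In iCLIP, the copying of a crosslinked RNA fragment into cDNA often halts beside the crosslinked base, so the base just upstream of a read is taken as the place of contact.

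In the GENCODE annotation at hand, which is of another build (GRCm38), Enc1 is a plus-strand gene with 3 exons at positions 97241105 to 97253034 of chromosome 13. The coding part, 1770 nt with its stop codon, lies within exon 2, which continues for 31 nt past the stop codon. Exon 3, of 2498 nt, holds 3′ untranslated sequence only and follows an intron of 3752 nt. The transcript of 4737 nt contains GCATG 7 times on its own strand, 3 of them as the full TGCATG. Of the 7, 2 lie in exon 3, 1 of them as the full TGCATG. These 2 places are shown because they are the words in that exon that Rbfox1 is known to read, with the motif in capitals and 12 bases before it.
TGCATG at base 667 of exon 3, chr13:97251191-97251220, plus strand, GRCm38: ttgtttgcggccTGCATGctgaaacagtgc
GCATG at base 1840 of exon 3, chr13:97252364-97252393, plus strand, GRCm38: tgtaccctggtgGCATGatcagttgtcttg
Both words are common in windows of this size. The last 2498 nt of the longest protein-coding transcript held TGCATG at least 1 time in 53.7% of 11804 genes with a transcript of that length, and GCATG at least 2 times in 67.8%. The transcript strand alone was searched, and each TGCATG is also counted as a GCATG. No position was carried from one build to the other.

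Almost all Enc1 reads lay in a stretch that the rule for Enc1 had fixed, so this share is a description. Crosslinks no more than 20 nt from the next on a strand made up a cluster, and clusters no more than 1000 nt apart a stretch. The stretch from 98020487 to 98022975 (mm9) spanned 2489 nt and held 279 of the 296 reads (94.3%, exact 95% interval 91.0 to 96.6) at 184 of 195 crosslink positions. The other 17 reads, at 11 positions, formed an upstream group of 835 nt, from 98015731 to 98016565. The 3921 nt between the upstream group and the stretch held 0 reads. The length of the stretch was 9 nt below that of exon 3 in GRCm38, and the empty gap was longer than the intron before that exon. Whether the stretch is exon 3 was not tested, since no annotation of the mm9 build was used here.

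**Figure D1:**
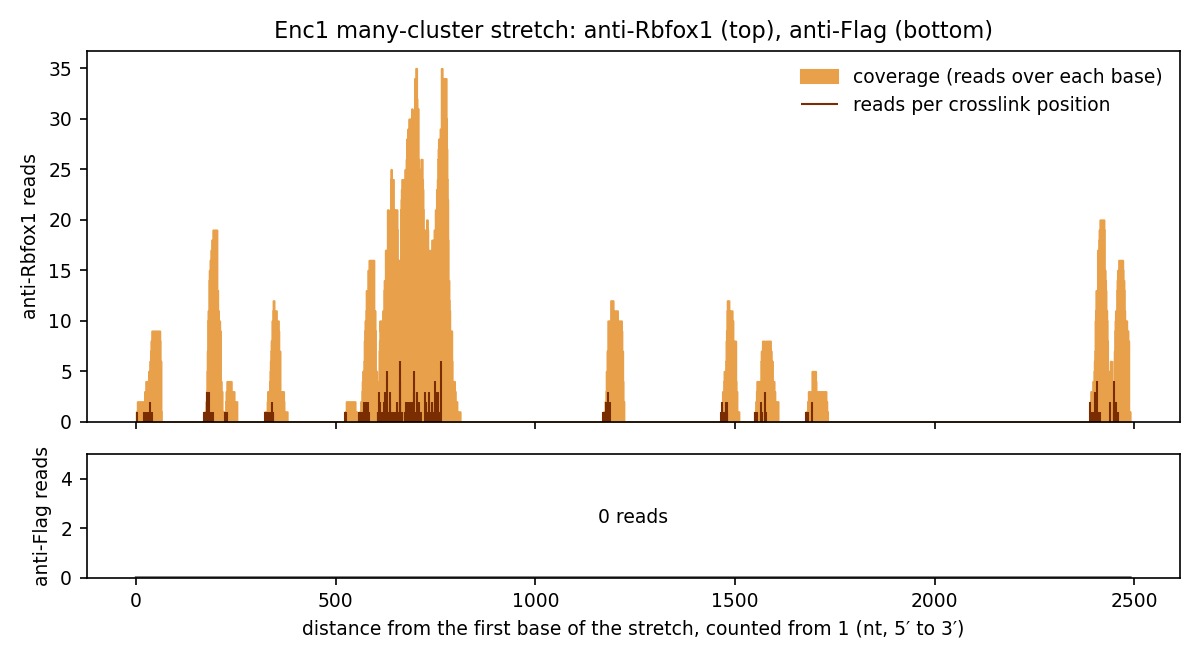
Reads over each base (filled) and reads per crosslink position (dark lines) along the Enc1 stretch, with the distance from its first base in nt on the horizontal axis and anti-Rbfox1 above anti-Flag. Anti-Rbfox1 coverage reaches 35 reads near base 701 and the anti-Flag panel holds 0 reads.

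The anti-Flag control gave no read at Enc1. At an equal share of both libraries, 2.60 control reads would have fallen there, and a count of 0 in 569 still allows up to 0.527% of the control, above the 0.457% of the anti-Rbfox1 library that Enc1 made up (exact 95% interval 0.406 to 0.512). A lower share in the control was therefore not detectable at this depth. Such intervals and limits cover counting error only, as amplified reads are not independent molecules. Over the anti-Rbfox1 library, 56 of 7297 stretches (0.767%) overlapped at least 1 control read on the same strand, so a stretch without control reads was the usual case. Among the 44 stretches of at least 8 clusters, 1 (2.27%) overlapped a control read.

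Distances from Enc1 to the nearest reads are given with no usual distance between stretches to set beside them. The nearest anti-Rbfox1 read on the plus strand ended 82.3 kb before the first Enc1 read, and the next began 1020.8 kb after the stretch. On the opposite strand the interval held 0 anti-Rbfox1 and 0 anti-Flag reads. The nearest control reads lay on that opposite strand, 55.1 kb before the first Enc1 read.

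The 16 Enc1 clusters differed widely in depth. The highest held 137 reads, while the other 12 clusters of the stretch held between 2 and 21, with a median of 12, and 142 reads in all. Counted over the interval, 10 of the 16 clusters held 10 reads or more. In the library as a whole 1248 of 10134 clusters did so (12.3%), and the median cluster held 3 reads. The clusters chose the gene, so this contrast has no test. Its background pools all parts of the deposited file, described below, and is not given for the part with most Enc1 reads. All positions in the next paragraphs are in mm9, and bases of the stretch are counted from 1 at its first base.

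**Figure D2:**
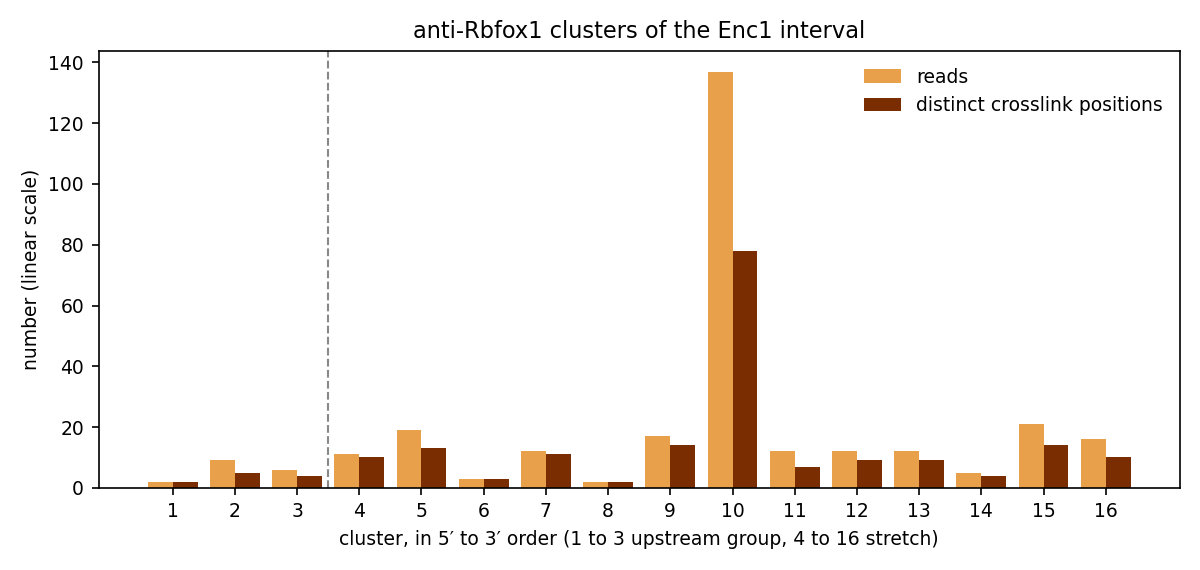
Anti-Rbfox1 reads and distinct crosslink positions (linear scale) in each of the 16 Enc1 clusters in 5′ to 3′ order, with the upstream group left of the dashed line. The tenth cluster, with 137 reads at 78 positions, stands far above the others, which hold between 2 and 21 reads.

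The highest cluster ran from 98021093 to 98021297, bases 607 to 811 of the stretch, and had rank 25 by reads among all clusters of the library. It held 46.3% of all Enc1 reads (exact 95% interval 40.5 to 52.1). By crosslink positions, which are not swelled by repeated stops at a base, it held 78 of 195, or 40% (33.1 to 47.2). It was broad rather than a point. Its crosslinks spread over 159 nt, and 49.1% of those bases carried at least 1. In consecutive windows of 40 nt from its first crosslink it held 34, 34, 31 and 38 reads, an even spread along its length. The positions used most were 98021148 and 98021250, with 6 reads each. After them came 98021115 and 98021183, with 5 each.

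Within that cluster the coverage formed 3 humps. The first reached 25 reads at base 639, the second 35 at base 701 and the third 35 at base 765. Between them it dipped to 13 reads at base 659 and to 14 at base 734. With crosslinks joined only within 10 nt, the cluster came apart into 96 reads with crosslinks from base 606 to 713 and 41 reads with crosslinks from base 724 to 764, so its single appearance depends on the joining distance. The 3 humps are a description of these reads and were not tested against a smooth profile.

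**Figure D3:**
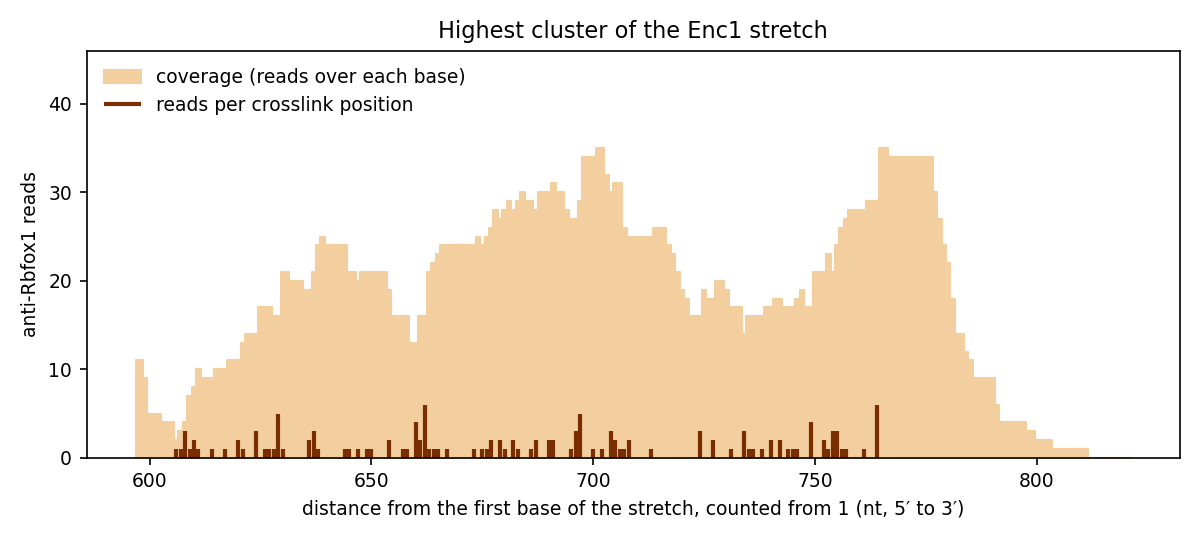
Reads over each base (filled) and reads per crosslink position (dark lines) in the highest Enc1 cluster, against the distance from the first base of the stretch in nt. Reads of the neighbouring cluster appear at the left edge, and coverage shows humps of 25, 35 and 35 reads.

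Upstream of the highest cluster, the 5′ part of the stretch held 6 clusters. The first, from 98020487 to 98020549, had 11 reads at 10 positions. The second, from 98020658 to 98020724 (67 nt), had 19 reads, all of which overlapped the base 98020679. A small cluster of 3 reads overlapped its 3′ end, and a further 12 reads lay from 98020809 to 98020864. Next to the highest cluster, 2 reads from 98021010 and 17 reads from 98021046 to 98021097 made up its left shoulder. The last of these overlapped the reads of the highest cluster by 5 nt, so the border between them is set by the 20 nt rule. Joined within 50 nt, the highest cluster held 52.7% of the Enc1 reads.

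Downstream of the highest cluster lay 6 more. After a gap of 359 nt, 12 reads lay from 98021657 to 98021707, and after another of 245 nt, 12 from 98021953 to 98021995. A further 12 reads lay from 98022037 to 98022093 and 5 from 98022164 to 98022217. The longest empty part followed, with 658 nt that no read covered, from base 1732 to base 2389. A pair of overlapping clusters closed the stretch, with 21 reads from 98022876 to 98022934 and 16 reads from 98022926 to 98022975. Of those 16 reads, 7 ended at the same base, 98022971. Reads covered 786 of the 2489 bases of the stretch (31.6%), leaving 9 gaps.

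Set beside the annotated sequence, the TGCATG shown above lay at base 667 of exon 3 in GRCm38, and the highest cluster covered bases 607 to 811 of the stretch in mm9. The other GCATG lay at base 1840 of that exon, while bases 1732 to 2389 of the stretch held no read. A further 5 GCATG of the transcript, among them its other TGCATG, lie outside exon 3. The exon and the stretch are counted from starting points in different builds that were not tied to each other. Whether the motif lies under the crosslinks was therefore not tested.

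The upstream group consisted of 3 small clusters. They held 2 reads from 98015731 to 98015758, 9 reads from 98015941 to 98015967 and 6 reads from 98016526 to 98016565. In the middle one, 4 of the 9 reads had their crosslink at 98015941, and all 9 covered a shared base. The group's reads were short, with a median of 22 nt (range 16 to 38), and 7 of 17 were under 20 nt. In the stretch the median was 28 nt (range 15 to 57), and 35 of 279 reads were under 20 nt. In the rest of the library the median was also 28 nt, with 9.84% of reads under 20 nt, and in the anti-Flag library 28 nt, with 18.6%. The upstream reads stood in another part of the deposited file than those of the stretch, as described next. Lengths within that part are not given here, so group and part of the file cannot be told apart. Reads of 1 library are not replicates, so these lengths were not tested.

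The upstream group and the stretch also stood in different places in the deposited file. The chromosome order starts again several times down the anti-Rbfox1 file, which divides its lines into 11 blocks of unstated meaning. All 17 upstream reads were in the ninth block, which held 3.14% of the library. In the stretch, 277 of 279 reads were in the fourth block, which held 74.2% of the library. The remaining 2 reads, in the first block, began at 98020487 and 98020490, at the very 5′ end of the stretch. Reads in the first block never share a leftmost base, while in the fourth and the ninth block they may, with different lengths. Reads that repeated an earlier leftmost base numbered 16313 of 48064 in the fourth block and 315 of 2033 in the ninth. The counts of nearly all Enc1 reads are therefore not on the footing of the first block. Whether the fourth and ninth blocks share a footing was not tested.

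Repeated stops at a base occurred at Enc1 as elsewhere in the fourth block. Of the 195 Enc1 positions, 132 held 1 read and 63 held 2 or more (32.3%, exact 95% interval 25.8 to 39.4), up to 6. In the fourth block outside Enc1, 26.5% of positions held 2 or more. Reads that shared their 3′ end with another read made up 67.2% of the Enc1 reads (61.6 to 72.5) and 54.9% of that block outside Enc1. They made up 51.0% of the rest of the anti-Rbfox1 library and 64.1% of the anti-Flag library. Beside the fourth block, the share of positions differed by less than counting error and that of 3′ ends by more. Neither was tested, as reads of 1 library are not replicates, and neither was compared at like depth of clusters. The first 16 tiles of the sequencing lane held 79.7% of the Enc1 reads (74.7 to 84.2) and 81.3% of the rest of the library, a difference within counting error.

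Among all 7297 anti-Rbfox1 stretches, that of Enc1 had rank 4 by clusters, rank 21 by reads, rank 12 by span and, with a tie, rank 12 by crosslink positions. The 3 stretches with more clusters lay on minus strands and had fewer reads per cluster on average. One on chromosome 15 had 140 reads over 24 clusters, or 5.83 reads per cluster, and one on chromosome 2 had 166 over 19, or 8.74. One on chromosome 11 had 147 reads over 14 clusters, or 10.5 per cluster. Enc1 had 21.5 reads per cluster. Over its 12 clusters other than the highest it had 11.8, which is unlike the other values here, as those include the highest cluster. The 44 stretches of at least 8 clusters had between 3 and 45.7 reads per cluster, with a median of 13.4. Of these 44, 33 had most of their reads in the fourth block of file lines, and no median is given for those 33 alone. The fourth block of file lines held 99.3% of the reads of the Enc1 stretch, 0% of those of the stretch on chromosome 15, 100% on chromosome 2 and 89.8% on chromosome 11, so the read numbers on chromosome 15 may not be on the same footing. Among 2941 stretches built from the fourth block alone, Enc1 had rank 2 by clusters. These ranks describe the ground on which the gene was chosen and have no test.

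**Figure D4:**
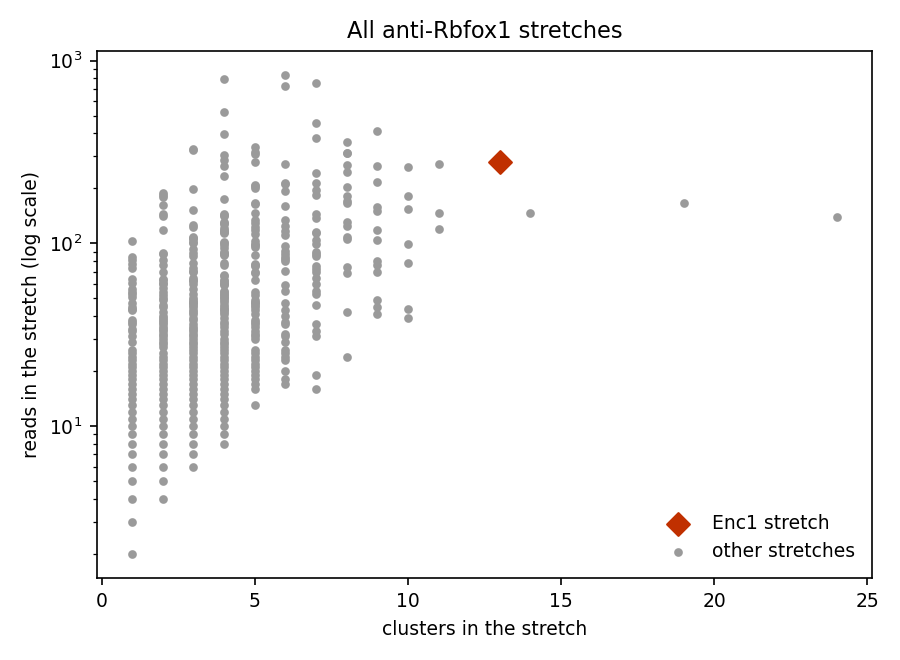
Clusters (linear scale) and reads (log scale) of every anti-Rbfox1 stretch, with the Enc1 stretch as a red diamond at 13 clusters and 279 reads. The 3 stretches to its right have more clusters and lie below it in reads.

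The share of reads in a single cluster also set many-cluster stretches apart. In Enc1 the highest cluster held 49.1% of the stretch's reads, against 12.1% on chromosome 15, 13.3% on chromosome 2 and 17.7% on chromosome 11. The chromosome 15 reads were, as above, outside the fourth block. Next below Enc1 by clusters and then reads was a minus-strand stretch of chromosome 3 (146392583 to 146395616). With 11 clusters and 272 reads, 98.9% of them in the fourth block, it held 47.8% in its highest cluster, close to Enc1. Over the 44 stretches of at least 8 clusters this share ran from 12.1% to 56.0%, with a median of 30.5%, and Enc1 had rank 4. The 3 stretches of that kind nearest to Enc1 in reads per cluster were named by position only. Each had 8 clusters. A plus-strand stretch of chromosome 11 (98627925 to 98630270) had 171 reads, 49.7% of them in its highest cluster. A plus-strand stretch of chromosome 16 (17046726 to 17047535) had 167 reads and a share of 35.9% in its highest cluster. For a minus-strand stretch of chromosome 10 (107936035 to 107937641) the values were 182 reads and 24.7%. None of these 3 held a control read. Likeness here is over reads per cluster in 1 library and says nothing of shared function.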

How the data were processed

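Per the labels, the 2 libraries were anti-Rbfox1 and anti-Flag iCLIP preparations of cytoplasm from cultured mouse forebrain neurons. The authors deposited 1 line per aligned read, with first base, last base, strand and a further position. That position lay 1 base upstream of the read in 64820 of 64820 anti-Rbfox1 and 569 of 569 anti-Flag reads and was used as the crosslink. The submitters' processing notes name Bowtie and mm9. For versions, PCR copies and cluster filters the settings are not given in the sources used. Within a library 0 reads repeated another's ends and strand, and 0 clusters had a single position, so the files had been collapsed and filtered, and read numbers do not count all molecules. The anti-Flag library, with 569 reads, sets the precision of any comparison.

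The interval and stretch came from the rule for Enc1. Members and lists were chosen with earlier results of these data known. Other stretches were named as the 3 of at least 8 clusters nearest in reads per cluster. Those with more clusters than Enc1, and the next below it by clusters and then reads, were named as well. Shares have Clopper-Pearson 95% intervals, and a count of 0 a limit of 3 counts. No p-values were computed. Anti-Rbfox1 reads passed the last annotated base of GRCm38 on 6 of 21 chromosomes, so mm9 positions were not set on that annotation, and the planned motif distances and pathway genes were not analysed here. The joining steps were tested on simulated plus-strand clusters set well apart, so clusters with overlapping reads, as at Enc1, were not covered. Python 3.11.15, numpy 2.4.6, pandas 2.3.3, scipy 1.17.1 and matplotlib 3.10.9 were used.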

Additional observations from a re-analysis of the deposited data

How the results depend on the processing

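Over the results, 15 values were recomputed under alternatives. Reads and shares were held to their 95% interval, and numbers of clusters and ranks to 1.5 times the reported value. By that measure 10 stayed and 5 moved. With reads that share a 3′ end and have crosslinks 1 nt apart counted as 1, Enc1 had 262 reads in place of 296. The share of Enc1 reads in the highest cluster, 46.3%, was 32.4% with crosslinks joined within 10 nt, 52.7% within 50 nt and 40% by positions. A wider or narrower joining distance changes that share by construction. The rank by clusters was 2 among 2941 stretches built from the fourth block of file lines alone. The number of clusters stayed between 12 and 19, and that of the stretch between 11 and 13. No paired analysis was possible because only 1 library was made with each antibody. The 569 control reads limit what can be said, since 0 reads there allow up to 0.527% of that library.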
